A study of Mus musculus with 24 samples.

Results

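The 8 genes described here, Ucp1, Dio2, Prdm16, Ppargc1a, Cidea, Elovl3, Cox7a1 and Cox8b, are commonly used to recognise thermogenic brown and beige fat. They were taken by symbol from a table of read counts for 54232 mouse genes, with symbols assigned through the GENCODE annotation of GRCm38, and all 8 were present. Only 6 of the 8 had more than 10 counts over all 24 libraries and could be tested between groups. Brown fat burns fuel to make heat, and beige cells with the same ability can appear within white fat after cold or adrenergic stimulation. Noradrenaline raises cyclic AMP in these cells, which releases fatty acids, induces the thermogenic genes and opens UCP1, a protein that lets protons leak across the inner mitochondrial membrane so that respiration yields heat in place of ATP. DIO2 makes active thyroid hormone within the cell, and PRDM16 and PGC-1α direct the program in the nucleus.

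RNA sequencing was performed on adipose tissue (visceral fat by the methods of the study) of C57BL6 mice, male by those methods and 10 weeks old by the description of the series. Control mice had a sham operation and GFP, NaKtide mice had a sham operation and NaKtide, PNx mice had a partial nephrectomy and GFP, and PNx+NaKtide mice had a partial nephrectomy and NaKtide, with 6 mice and 6 libraries in each of the 4 groups. Partial nephrectomy ligates part of the left kidney and removes the right one, as a model of renal failure. All 24 mice, controls included, received lentivirus by intraperitoneal injection. Its adiponectin promoter, active in adipocytes, drove either GFP alone or NaKtide together with GFP, so no untransduced animal was included. NaKtide is a peptide from the Na,K-ATPase that is meant to limit Src signaling.

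Some properties of the libraries bear on every value below. They held 679250 to 2979505 counts each, and a count of 0 in 1 library allows up to 3 counts, which is 0.74 to 5.91 CPM (read counts scaled to a common total after TMM, an edgeR scaling of library sizes by a trimmed mean) by counting error alone. The mitochondrial mRNA of the minus strand, mt-Nd6, had 67.6 times the counts per kb of the 12 plus-strand mRNAs together (21 to 194 in single libraries), and genes whose exons overlap a gene on the opposite strand held 79.9% of all counts although they were 16.8% of the matched genes. A low count of a gene in this table therefore does not show that its RNA was low, and for a gene with such an overlap the counts may include reads of the other gene. A list of 20 adipocyte markers had sums of 9630 and 7419 CPM in the replicates 6 of PNx and NaKtide, against 176 to 1648 CPM in the other 22 libraries, and each of the 20 markers had its highest value in 1 of those 2 libraries. A list of 21 skeletal muscle markers summed to 7853 CPM in NaKtide replicate 6 and to at most 729 CPM elsewhere. Of 20 testis germ cell markers, 8 (40%) had their 3 highest values of the 24 libraries in PNx replicates 1, 2 and 3, against 16.4% of all genes tested. Separate fits left out PNx replicate 6 and NaKtide replicate 6, or PNx replicates 1, 2 and 3, and none left out all 5. Their values are given beside the results where the direction or the size changed most. In bulk tissue, fewer cells of a type and less RNA per cell cannot be told apart.

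The control regions of Ucp1 and Dio2 are shown because both genes are classical targets of the cyclic AMP pathway. Each sequence covers 250 bases before and 50 bases after the RefSeq start (build GRCm38.p6), at chr8:83290098-83290397 on the plus strand for Ucp1 and chr12:90738989-90739288 on the minus strand for Dio2. Capitals mark the letters TGACG (the core of a cyclic AMP response element, complete as TGACGTCA) and AGGTCA (a core bound by nuclear receptors), searched on both strands.

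Ucp1: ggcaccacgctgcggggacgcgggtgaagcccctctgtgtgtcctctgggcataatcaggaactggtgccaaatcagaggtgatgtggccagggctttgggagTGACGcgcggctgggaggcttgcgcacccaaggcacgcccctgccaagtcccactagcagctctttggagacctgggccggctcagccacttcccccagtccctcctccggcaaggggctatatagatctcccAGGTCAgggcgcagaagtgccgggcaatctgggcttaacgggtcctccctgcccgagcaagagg

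Dio2: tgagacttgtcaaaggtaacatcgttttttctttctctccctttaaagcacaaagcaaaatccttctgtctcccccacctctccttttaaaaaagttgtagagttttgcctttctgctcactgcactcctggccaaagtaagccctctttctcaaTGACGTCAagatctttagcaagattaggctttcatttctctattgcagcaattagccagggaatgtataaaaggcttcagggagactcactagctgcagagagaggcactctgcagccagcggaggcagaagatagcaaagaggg

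The Dio2 window held the complete TGACGTCA, which reads the same on both strands and so contains TGACG on each, while the Ucp1 window held 1 TGACG and 1 AGGTCA. Of 32851 RefSeq promoters of the same length, 1.79% held TGACGTCA, 20.8% held TGACG on either strand and 16.3% held AGGTCA. Among the members with a promoter in the same table (6 of 8), Ppargc1a had 1 TGACG, and Prdm16, Cox7a1 and Cox8b had neither motif. Such matches describe letters only. The Dio2 window lies upstream of the Dio2 start in GENCODE, which differs from that of RefSeq, and within the span of Gm26512, a long noncoding RNA gene read from the opposite strand.

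Across the 24 libraries, the defining thermogenic genes were close to absent from the counts. On the per-length scale of the deposited FPKM (which divides by gene length and by depth), the mean levels were 3.66 ± 3.17 for Cox7a1, 2.26 ± 9.58 for Cox8b, 1.45 ± 2.68 for Dio2 and 0.47 ± 0.20 for Prdm16 (SD, n = 24). Cidea followed with 0.30 ± 0.76, Ucp1 with 0.040 ± 0.109, Ppargc1a with 0.038 ± 0.055 and Elovl3 with 0 (SD, n = 24). Each neighbour in this order differed from the next by less than the larger of the 2 SDs, so the order is not firm. For scale, the adipocyte genes Fabp4 and Adipoq had means of 45.4 ± 76.4 and 42.5 ± 56.3 FPKM, and the ubiquitous cytochrome c oxidase genes Cox8a and Cox7a2 had 17.1 ± 16.6 and 9.78 ± 6.42 FPKM (SD, n = 24). A few libraries raised these means, as Fabp4 had 331 FPKM in PNx replicate 6. The medians were 16.7 FPKM for Fabp4, 20.1 for Adipoq, 14.7 for Cox8a and 8.95 for Cox7a2, and at most 2.57 FPKM (Cox7a1) for the members.

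**Figure D1:**
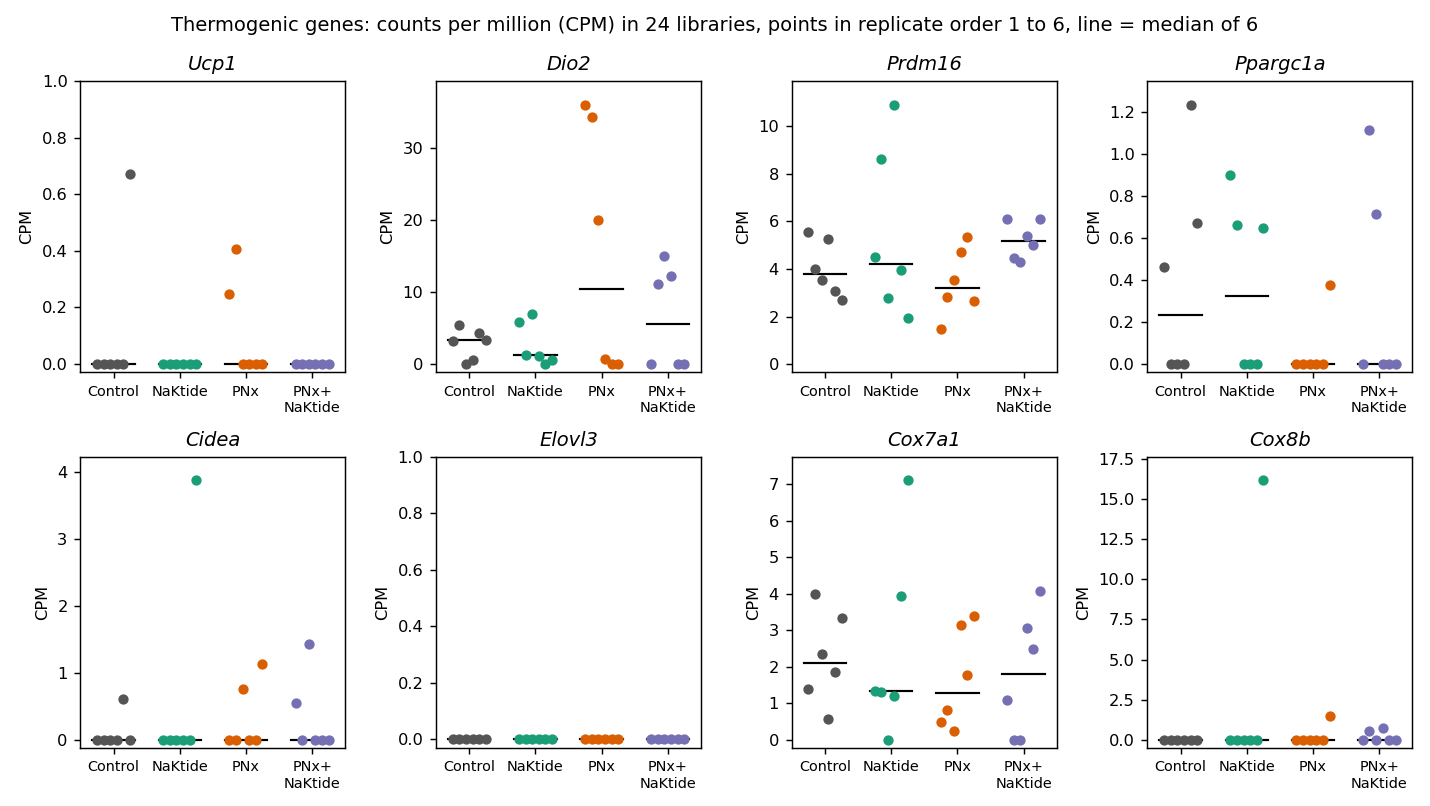
CPM (vertical axes, linear, each panel with its own scale) of the 8 thermogenic genes in the 4 groups; each point is 1 library, in replicate order from left to right, and each line is the median of 6. Dio2 reached 36.0, 34.3 and 19.9 CPM in PNx replicates 1, 2 and 3, Cox8b 16.2 CPM in NaKtide replicate 6, and Ucp1 and Elovl3 lay at or near 0 everywhere.

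Ucp1 (ENSMUSG00000031710, chromosome 8, 83290352 to 83298452, GRCm38), the proton channel that defines brown fat, had 3 counts in the whole series. They were 1 count each in Control replicate 6, PNx replicate 1 and PNx replicate 2. The NaKtide and PNx+NaKtide groups had no count in 6 of 6 libraries each, which allows up to 0.37 and 0.33 CPM over the group. No exon of Ucp1 overlaps a gene on the opposite strand, which does not lift the limit on low counts given above. Ucp1 was too low to test, and no difference between groups was detectable at this depth.

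Elovl3 (ENSMUSG00000038754, chromosome 19, 46131897 to 46135694), which elongates very long chain fatty acids and is strongly induced by cold in brown fat, had no count in 24 of 24 libraries. Over all libraries together this allows up to 0.069 CPM. It shares 10 exon bases with Pitx3 on the opposite strand, and the limit on low counts given above holds here too.

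Cidea (ENSMUSG00000024526), a lipid droplet protein abundant in brown and beige adipocytes, had 16 counts in 6 of the 24 libraries. Its counts were 6 in NaKtide replicate 6, 3 each in PNx replicates 3 and 6, 2 in PNx+NaKtide replicate 3, and 1 each in PNx+NaKtide replicate 1 and Control replicate 5. The 2 libraries with most adipocyte marker counts thus held 9 of the 16. The groups overlapped, since every group had libraries at 0. The edgeR adjusted p was 0.463 for PNx against Control and 0.978 for PNx+NaKtide against PNx, on counts too few for a fold change.

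Ppargc1a (ENSMUSG00000029167, chromosome 5, 51454250 to 51567726) encodes PGC-1α, the coactivator of mitochondrial biogenesis that responds to cyclic AMP. It had 12 counts in 9 libraries and never more than 2 in any of them. The group totals were 4 counts in Control, 4 in NaKtide, 1 in PNx and 3 in PNx+NaKtide, so that 5 of 6 PNx libraries and 3 of 6 Control libraries were at 0. In edgeR the adjusted p was 0.240 for PNx against Control and 0.454 for PNx+NaKtide against PNx. limma voom with sample weights gave 0.014 and 0.019 as adjusted p for the same contrasts, in a setting that called 63.8% and 44% of all genes.

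Prdm16 (ENSMUSG00000039410, chromosome 4, 154316125 to 154636873), the zinc finger co-regulator that sets brown over muscle fate, was the most evenly measured member, with counts in 24 of 24 libraries and 181 in all. Its lowest, median and highest values were 2.68, 3.78 and 5.57 CPM in Control and 1.94, 4.22 and 10.9 CPM in NaKtide. They were 1.48, 3.18 and 5.35 CPM in PNx and 4.29, 5.18 and 6.11 CPM in PNx+NaKtide. The 4 groups overlapped throughout, and the highest value of all was that of NaKtide replicate 4, which rested on 9 counts. The log2 fold change was -0.27 ± 0.44 (SE) for PNx against Control (edgeR, adjusted p = 0.701) and 0.63 ± 0.44 (SE) for PNx+NaKtide against PNx (edgeR, adjusted p = 0.477). Its sign for PNx against Control turned with the scaling, to 0.12 with the size factors of DESeq2. Prdm16 shares 109 exon bases with B230104I21Rik on the opposite strand, which had 308 counts. Which of the 2 genes gave the reads counted there was not tested.

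The genes whose log2 CPM was most like that of Prdm16 over the 24 libraries, among 11279 protein-coding genes with a mean of at least 5 counts, were Bcas3 (Spearman correlation 0.82), Mcidas (0.81) and Scnn1a (0.81). Mcidas drives the multiciliated cell program, and Scnn1a encodes a subunit of the epithelial sodium channel. Scnn1a had 0.49, 8.48 and 4.04 CPM in PNx replicates 1, 2 and 3 and 34.5 and 41.0 CPM in PNx replicates 4 and 5. The libraries share depth and tissue composition, and these correlations are a description without a test.

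Dio2 (ENSMUSG00000007682, chromosome 12, 90724552 to 90738438), the deiodinase that converts thyroxine to active triiodothyronine and is induced by adrenergic stimulation in brown fat, was the member with the largest difference between PNx and Control in CPM. It had 36.0, 34.3, 19.9, 0.79, 0 and 0 CPM in PNx replicates 1 to 6. The Control libraries had 3.25, 5.50, 0, 0.58, 4.32 and 3.35 CPM. The PNx group was therefore split, with replicates 1, 2 and 3 above every other library of the series and replicates 4, 5 and 6 at or below the Control median of 3.30 CPM.

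The sham mice with NaKtide had 5.86, 1.33, 6.98, 1.21, 0 and 0.65 CPM of Dio2, a range that overlapped Control. The PNx+NaKtide mice had 0, 11.1, 15.0, 12.3, 0 and 0 CPM. In that group too the libraries were split, with replicates 2, 3 and 4 above every Control and NaKtide library and replicates 1, 5 and 6 at 0.

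The group means of Dio2 were 2.83 ± 2.14 CPM in Control, 2.67 ± 2.96 CPM in NaKtide, 15.2 ± 17.3 CPM in PNx and 6.40 ± 7.13 CPM in PNx+NaKtide (SD, n = 6). The log2 fold change for PNx against Control was 2.41 ± 1.16 (SE) with an unadjusted p of 0.0488 and an edgeR adjusted p of 0.195, so the difference did not pass the threshold of 0.1. DESeq2 gave 3.26 with an adjusted p of 0.054, in a setting that called 34.9% of all genes. Without PNx replicates 1, 2 and 3 the log2 fold change was -3.47 (edgeR, adjusted p = 0.446), a value that rests on 1 count in the remaining PNx libraries. For PNx+NaKtide against PNx it was -1.26 ± 1.10 (SE, edgeR, adjusted p = 0.550), and 4.55 without those 3 libraries (edgeR, adjusted p = 0.269). The 2 contrasts share the PNx libraries.

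**Figure D2:**
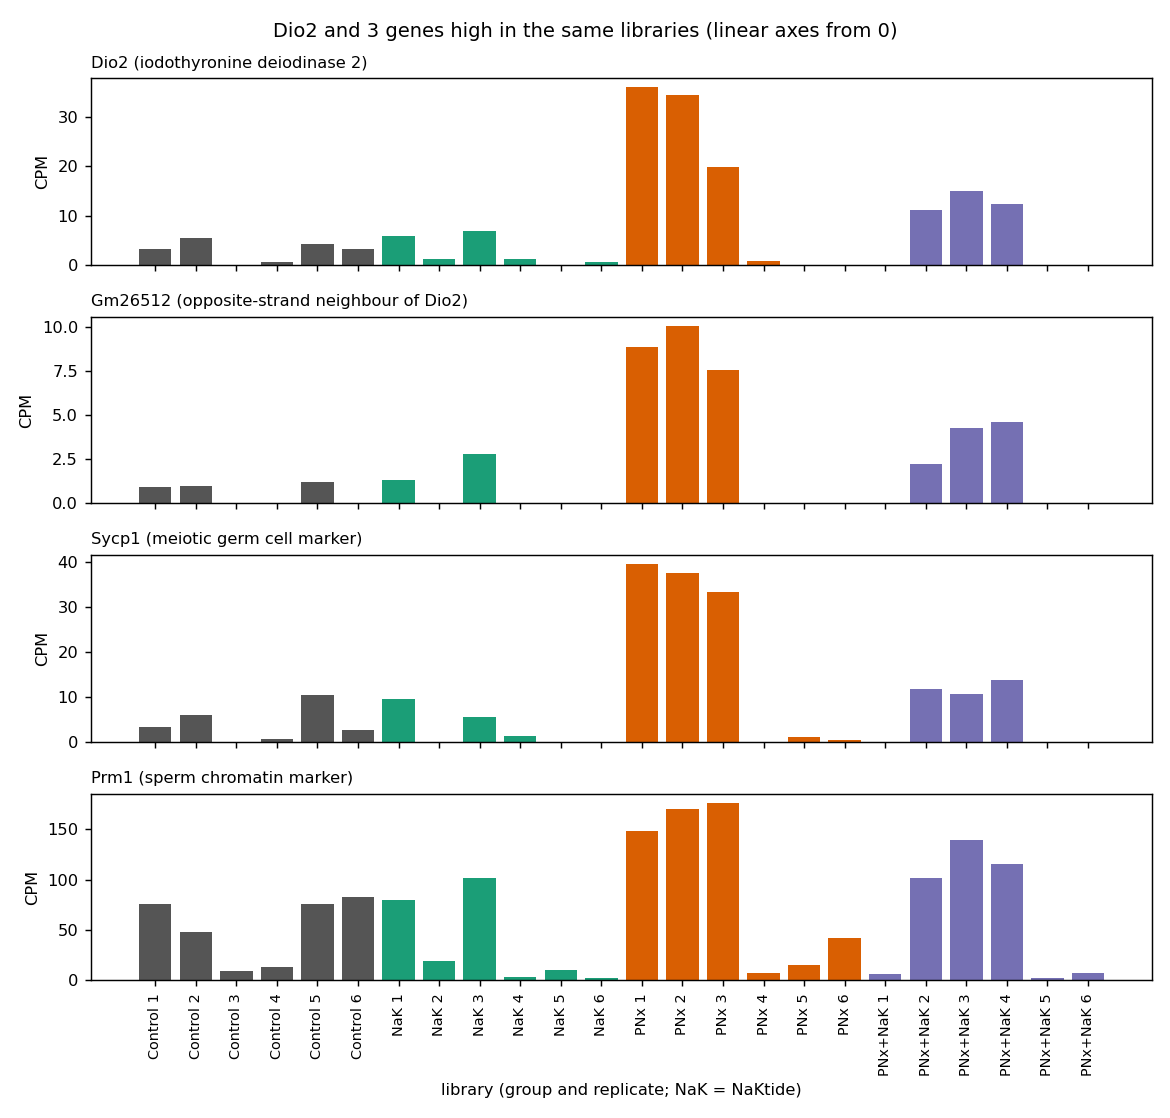
CPM (vertical axes, linear from 0) of Dio2, of its opposite-strand neighbour Gm26512 and of the germ cell markers Sycp1 and Prm1 in each of the 24 libraries (bars, coloured by group). All 4 genes were highest in PNx replicates 1, 2 and 3, and PNx+NaKtide replicates 2, 3 and 4 were next for Dio2, at 11.1, 15.0 and 12.3 CPM.

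Gm26512, the noncoding RNA gene opposite to Dio2, followed the same libraries. It had 8.87, 10.1 and 7.57 CPM in PNx replicates 1, 2 and 3 and 0 in PNx replicates 4, 5 and 6. Its log2 fold change for PNx against Control was 2.92 ± 1.14 (SE, edgeR, adjusted p = 0.148). Without PNx replicates 1, 2 and 3 it was -3.0 (edgeR, adjusted p = 0.512), and without PNx replicate 6 and NaKtide replicate 6 it was 3.19 (edgeR, adjusted p = 0.064). The latter fit called 15.4% of all genes higher and 6.38% lower, and the lowest adjusted p of a member in it was 0.102 (edgeR). The genes share 100 exon bases, and 310 of the 426 Dio2 counts and 91 of the 120 Gm26512 counts came from PNx replicates 1, 2 and 3.

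Dio2 was also high in the same libraries as 2 germ cell markers, which were chosen after their values were seen. Of all genes tested, 16.4% had their 3 highest values in PNx replicates 1, 2 and 3, as these genes did. Sycp1, a protein of meiotic chromosomes, had 39.4, 37.6 and 33.3 CPM in PNx replicates 1, 2 and 3, and Prm1, a protamine that packs sperm DNA, had 148, 170 and 176 CPM there. In the 7 libraries where Dio2 was at 0, Sycp1 was at most 1.19 CPM and Prm1 at most 42.3 CPM. In the 6 libraries where Dio2 was over 10 CPM, Sycp1 was at least 10.7 CPM and Prm1 at least 102 CPM. Libraries between these ends came close to those values. NaKtide replicate 3 had 101.9 CPM of Prm1 with Dio2 at 6.98 CPM, and Control replicate 5 had 10.5 CPM of Sycp1 with Dio2 at 4.32 CPM. Piwil1, another marker of the list, was at least 3.84 CPM in those 6 libraries but 17.5 CPM in NaKtide replicate 3. The summed germ cell list of 20 genes ranged from 292 to 849 CPM in Control and 434 to 945 CPM in NaKtide. It ranged from 364 to 1685 CPM in PNx and 216 to 1186 CPM in PNx+NaKtide. The sum was highest in PNx replicates 1, 2 and 3 (1451, 1325 and 1685 CPM). It was 815 CPM in PNx replicate 6, where Dio2 was at 0, and 749 CPM in NaKtide replicate 6, where Dio2 was at 0.65 CPM. The part of germ cells in the Dio2 values was not tested. The adipocyte list summed to 328, 295 and 331 CPM in PNx replicates 1, 2 and 3, below every Control library. Of its 20 genes, 13 were below every Control library in all 3 and 3 (Adipoq, Pnpla2 and Slc2a4) were above. Adipoq, whose promoter drives the transgene, had 95.1, 141 and 88.6 CPM there and at most 56.2 CPM in Control.

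The genes most like Dio2 over the 24 libraries, by the same measure as for Prdm16, were Elmo3, Spef1 and Spred3 with Spearman correlations of 0.97, 0.96 and 0.96. Spef1 encodes a microtubule protein of sperm flagella and cilia, and had 410, 516 and 328 CPM in PNx replicates 1, 2 and 3, against at most 93.6 CPM in Control and 25.1 CPM in PNx replicates 4, 5 and 6. All 3 genes overlap genes on the opposite strand, Elmo3 with Gm27320 and Mir328, Spef1 with Cdc25b and Gm14232, and Spred3 with Ggn.

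Cox7a1 and Cox8b encode the heart and muscle isoforms of 2 subunits of cytochrome c oxidase, the last complex of the respiratory chain, and both isoforms also mark brown fat. Other tissues use the isoforms Cox7a2 and Cox8a. Neither Cox7a1, Cox8b, Cox7a2 nor Cox8a overlaps an exon on the opposite strand, which does not lift the limit on low counts either.

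Cox8b (ENSMUSG00000025488, chromosome 7, 140898945 to 140900446) had 31 counts in all, of which 25 came from NaKtide replicate 6 and 4 from PNx replicate 6. The other 2 were 1 each in PNx+NaKtide replicates 2 and 4, and 20 libraries, with all 6 of Control among them, had 0. NaKtide replicate 6 therefore stood alone at 16.2 CPM, and the 5 other NaKtide libraries were at 0. Pooled over the group, NaKtide was at least 11.1-fold higher than the limit that 3 counts set for Control. That bound rests on this 1 library and covers counting error only, not the spread between mice. It therefore describes the library and gives no difference between the groups. The unadjusted p for NaKtide against Control was 0.0037 and the edgeR adjusted p was 0.890. Without the 25 counts of NaKtide replicate 6, Cox8b would have been too low to test. These p-values therefore cannot decide whether the groups differed.

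The library with most Cox8b also held the skeletal muscle genes. In NaKtide replicate 6 the fast myosin Myh4 had 1819 CPM and the actin Acta1 had 323 CPM, while no other library exceeded 10.8 and 5.02 CPM of them, and 20 of the 21 muscle markers were highest there. Cidea and Cox7a1 were also highest in this library, with 3.88 and 7.11 CPM. Adipocyte markers were high there as well (Plin1, 398 CPM, against at most 37.4 CPM in the other NaKtide libraries). The part of either tissue in the Cox8b value was not tested.

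Cox7a1 (ENSMUSG00000074218, chromosome 7, 30184144 to 30186078) had 79 counts in 21 of 24 libraries. Its lowest, median and highest values were 0.58, 2.11 and 4.0 CPM in Control and 0, 1.34 and 7.11 CPM in NaKtide. They were 0.25, 1.29 and 3.40 CPM in PNx and 0, 1.80 and 4.07 CPM in PNx+NaKtide. The groups overlapped, and the highest value of the PNx group was again that of replicate 6. The log2 fold change was -0.53 ± 0.79 (SE) for PNx against Control (edgeR, adjusted p = 0.675) and 0.17 ± 0.81 (SE) for PNx+NaKtide against PNx (edgeR, adjusted p = 0.922). Without PNx replicates 1, 2 and 3 both signs turned, to 0.23 and -0.59, and with library size scaling the second was -0.016.

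Per length, the ubiquitous isoforms led in most libraries. Cox8b exceeded Cox8a in FPKM in 1 of 24 libraries, NaKtide replicate 6, with 47.1 FPKM (25 counts) against 32.3 FPKM (26 counts). Cox7a1 exceeded Cox7a2 in 4 of 24 libraries. The share of Cox7a1 in the summed FPKM of Cox7a1 and Cox7a2 had a median of 35.1% in Control, 30.7% in NaKtide, 15.3% in PNx and 27.3% in PNx+NaKtide. These shares ranged from 0% to 73.8% over single libraries, with overlap between all groups, and most rested on fewer than 10 counts of Cox7a1.

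**Figure D3:**
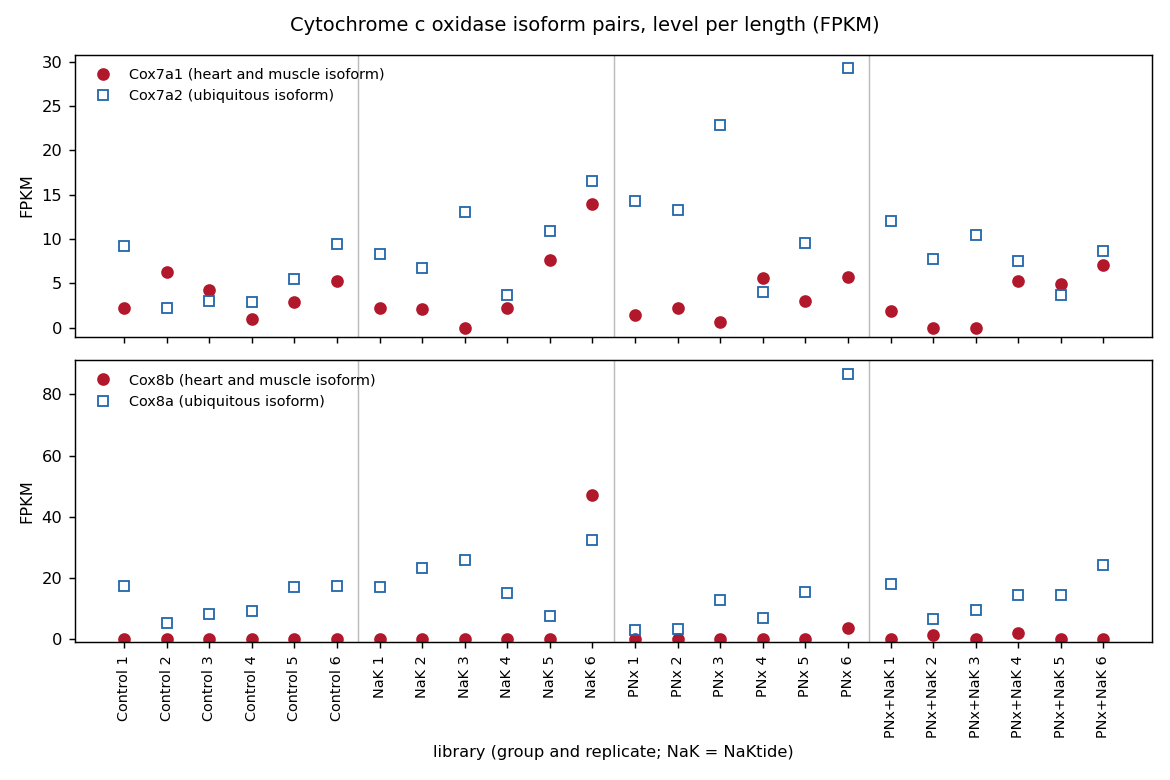
FPKM (vertical axes, linear) of the heart and muscle isoforms Cox7a1 and Cox8b (filled circles) and the ubiquitous isoforms Cox7a2 and Cox8a (open squares) in each of the 24 libraries. Cox8b stood above Cox8a only in NaKtide replicate 6, and Cox8a had its highest value, 86.8 FPKM, in PNx replicate 6.

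Cox7a2 had 5.91 ± 3.77 CPM in Control and 12.8 ± 9.57 CPM in PNx (SD, n = 6), a log2 fold change of 1.12 ± 0.49 (SE, adjusted p = 0.167 in edgeR). Its highest value, 30.9 CPM, was in PNx replicate 6. Cox8a reached 52.8 CPM in that library and at most 9.50 CPM in the other PNx libraries, with a log2 fold change of 0.64 ± 0.66 (SE, adjusted p = 0.527 in edgeR). Without PNx replicate 6 and NaKtide replicate 6 the sign of Cox8a turned, to -0.98 (edgeR, adjusted p = 0.178), and Cox7a2 had 0.64 (edgeR, adjusted p = 0.296). Without PNx replicates 1, 2 and 3 they had 1.40 and 1.27 (edgeR, adjusted p = 0.402 and 0.406).

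Among the 6 members that could be tested, PNx against Control, which asks for the effect of nephrectomy, gave no member past an adjusted p of 0.1 in edgeR, where 0.0766% of all genes passed. At an unadjusted p under 0.05 there was 1 member, Dio2, against 25.4% of all genes (18.5% higher in PNx). That count was 0 in 12 of 24 alternative settings, among them no filter, the replicate block, both FPKM scales and leaving out any of PNx replicates 1, 2 and 3 or of Control replicates 1, 3, 4, 5 and 6. Dio2 was also called by DESeq2, by edgeR with the size factors of DESeq2 (33.3% of all genes) and by edgeR without PNx replicate 4 (33.2% of all genes). limma voom called 3 members (Dio2, Ppargc1a and Cox7a1) against 63.8% of all genes, and limma on log2(FPKM + 1) or log2(FPKM + 0.1) called 0. All 26116 genes tested had a median of 0.36 on the log2 scale, or 0.76 with the size factors of DESeq2, and single values are to be read relative to it.

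PNx+NaKtide against PNx, the comparison that tests NaKtide in nephrectomised mice, gave 0 members in edgeR at either threshold, where 0% of all genes passed the adjusted p and 12.7% the unadjusted p. DESeq2 called 0 members against 9.63% of all genes, and limma voom called 3 (Cox8b, Ppargc1a and Prdm16) against 44% of all genes. The contrasts of NaKtide with Control, of PNx+NaKtide with NaKtide and the interaction of surgery and NaKtide gave 0 members at an adjusted p of 0.1 in edgeR, DESeq2 and limma voom. Each gave 1 member, Cox8b, at an unadjusted p under 0.05 in edgeR. For NaKtide against Control it stood beside 3.95% of all genes (2.04% higher and 1.91% lower), for PNx+NaKtide against NaKtide beside 4.09% (1.5% and 2.58%) and for the interaction beside 9.27% (3.48% and 5.79%). All of these rest on the 25 Cox8b counts of NaKtide replicate 6, without which the gene would have been too low to test. They therefore cannot decide whether the groups differed in Cox8b.

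Genes of the wider thermogenic program were taken as 6 lists, and none of their genes passed an adjusted p of 0.1 in PNx against Control, the lowest being 0.128 (edgeR). Other tools called many of the 108 list genes tested. DESeq2 called 42 higher and 1 lower (30.9% and 4.06% of all genes), and limma voom called 37 higher and 36 lower (32.7% and 31% of all genes). Counts of these genes at an unadjusted p under 0.05 are set beside the 18.5% of all genes that were higher and the 6.88% that were lower. Among all genes tested, 16.4% had their 3 highest values in PNx replicates 1, 2 and 3, and 24.8% had their highest value in PNx replicate 6 or NaKtide replicate 6.

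The brown and beige identity list had 7 of 16 tested genes higher in PNx at the unadjusted p and 0 lower, with a median log2 fold change of 1.63. The 4 with the lowest p were Ebf2, a transcription factor of brown fat precursors (3.40 ± 0.92, SE), Slc36a2, an amino acid transporter of the brown adipocyte surface (2.63 ± 0.93), Tnfrsf9, a receptor used as a beige marker (3.07 ± 1.09), and Eva1a (2.00 ± 0.75), each with an edgeR adjusted p between 0.128 and 0.141. Leaving out PNx replicates 1, 2 and 3 turned Eva1a to -1.13 and gave 2.20 for Ebf2 and 2.98 for Slc36a2, and Tnfrsf9 could not be tested. Without PNx replicate 6 and NaKtide replicate 6 Slc36a2 had 1.46. Ebf2 had 0 to 1.39 CPM in Control and 11.8, 8.88, 8.07, 0.79, 0 and 7.55 CPM in PNx replicates 1 to 6. Slc36a2 had 0 to 2.01 CPM in Control and 4.93, 5.65, 4.04, 1.57, 0.59 and 30.6 CPM in PNx. In all, 4 of the 16 (Ebf2, Tnfrsf9, Otop1 and Eva1a) had their 3 highest values in PNx replicates 1, 2 and 3. Ebf2 shares 424 exon bases with Gm10860 and Eva1a 86 with Gm15864 on the opposite strand, and Slc36a2 shares none. The genes Zic1, Lhx8, Tmem26 and Shox2 of this list had 1 to 8 counts in all and were not tested.

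The fatty acid oxidation and fuel supply list had 9 of 24 genes higher and 0 lower, with a median of 1.26. Its leading genes were Slc25a20, the carnitine carrier of the inner mitochondrial membrane (2.61 ± 0.72, SE), Acsl1, which activates long chain fatty acids (1.44 ± 0.50), Cpt1a, the gate of mitochondrial fatty acid import (1.18 ± 0.43), and Etfdh, which passes electrons from fatty acid oxidation to ubiquinone (1.67 ± 0.62), with edgeR adjusted p between 0.128 and 0.141. These values were 1.19, 0.95, -0.30 and 0.0098 in the same order without PNx replicates 1, 2 and 3. Slc25a20 had 0 to 5.00 CPM in Control and 20.2, 26.7, 18.4, 0.79, 2.38 and 12.5 CPM in PNx replicates 1 to 6. Of the 24 genes, 16 (66.7%) were highest in PNx replicate 6 or NaKtide replicate 6, against 24.8% of all genes. Another 4 (16.7%; Cpt1a, Slc25a20, Hadhb and Etfdh) had their 3 highest values in PNx replicates 1, 2 and 3. That share is close to the 16.4% of all genes. Acsl1 shares 1039 exon bases with Gm45244 and Etfdh 278 with 4930579G24Rik on the opposite strand.

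The transcription factor list had 4 of 20 genes higher and 1 lower, with a median of 0.64. Irf4, an adrenergically induced partner of PGC-1α (1.77 ± 0.67, SE), Ppargc1b, a coactivator related to Ppargc1a (2.20 ± 0.84), Tle3, a repressor that opposes Prdm16 (0.97 ± 0.43), and Tfam, which maintains mitochondrial DNA (1.71 ± 0.78), had edgeR adjusted p between 0.142 and 0.176. Ppargc1b had 0 to 6.17 CPM in Control and 25.4, 21, 16.4, 0, 1.19 and 2.64 CPM in PNx replicates 1 to 6. Irf4 and Ppargc1b had their 3 highest values in PNx replicates 1, 2 and 3, and without these libraries their log2 fold changes were -0.73 and -0.78. Tfam had -0.16 and Tle3 0.49 in that fit.

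The adrenergic and hormonal signaling list had 5 of 21 genes higher and 1 lower, with a median of 0.26. Fgfr1, the FGF21 receptor (1.90 ± 0.62, SE), Atf2, a factor that acts on Ucp1 and Ppargc1a downstream of p38 (1.74 ± 0.71), and Prkar1a, a regulatory subunit of protein kinase A (1.04 ± 0.45), were higher at the unadjusted p. Fgf21, a hormone that promotes browning, was the gene that was lower, with a log2 fold change of -2.60 ± 0.87 (SE, adjusted p = 0.134 in edgeR). It had 0.67 to 7.69 CPM in Control and 0.49, 0.40, 0, 2.36, 0.59 and 0 CPM in PNx. Fgfr1 had 1.61, Atf2 0.89, Prkar1a 0.73 and Fgf21 -2.06 without PNx replicates 1, 2 and 3. Fgfr1 shares 164 exon bases with Gm16159 on the opposite strand.

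The list of cytochrome c oxidase subunits other than the members had 3 of 13 genes higher and 1 lower, with a median of 0.48. Cox4i2, the hypoxia-responsive isoform of subunit 4, had the lowest p (2.85 ± 0.77, SE, edgeR, adjusted p = 0.128), with 0.58 to 2.01 CPM in Control and 17.5, 13.3, 10.9, 0.79, 1.19 and 2.26 CPM in PNx. Its value was 0.43 without PNx replicates 1, 2 and 3. Cox5a (1.05 ± 0.46), Cox7a2 (given above) and Cox6c (-0.63 ± 0.28) completed the 4. Cox5a shares 269 exon bases with Gm26631 and Cox6c 250 with Vps13b on the opposite strand. Without PNx replicate 6 and NaKtide replicate 6 Cox5a had 0.55. Of the 13 subunit genes, 11 had their highest value in PNx replicate 6 or NaKtide replicate 6.

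Cycles that can produce heat without Ucp1, such as the creatine cycle and calcium pumping, had 1 of 14 tested genes higher and 0 lower, with a median of 0.37. That gene was Gatm, which makes the precursor of creatine (3.08 ± 1.02, SE, edgeR, adjusted p = 0.134), on 55 counts in all. Gatm had 1.32 without PNx replicates 1, 2 and 3. Ckmt2, the mitochondrial creatine kinase, had 1.75 ± 0.96 (SE), Ucp2 had 0.49 ± 0.34 and Gamt had -0.93 ± 0.64, with edgeR adjusted p between 0.238 and 0.338. Without those libraries Ckmt2 turned to -2.16, with -0.13 for Gamt and 0.30 for Ucp2. Ryr2 and Sln had 9 and 4 counts in all and were not tested.

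Leaving out single sets of libraries changed the lists. Without PNx replicate 6 and NaKtide replicate 6 the median of the identity list was 1.69 with 8 of 15 genes higher, while the medians of fatty acid oxidation and of the oxidase subunits were -0.04 and -0.51, beside 0.02 for all genes. In that fit edgeR called 15.4% of all genes higher and 6.38% lower. Of the list genes it called 17 of 107 higher and 5 lower, with 7 higher and 0 lower in the identity list, 4 and 1 in fatty acid oxidation, 2 and 2 in each of the transcription factor and signaling lists, 1 and 0 in the oxidase subunits and 1 and 0 in the heat cycles. limma voom on all libraries gave medians of 1.80 for the identity list, -0.0054 for fatty acid oxidation and -0.62 for the oxidase subunits. Without PNx replicates 1, 2 and 3 the identity list had a median of 0.57 with 2 of 15 genes higher, and the oxidation and oxidase lists had 1.17 and 1.10, beside -0.05 for all genes. Of the 108 list genes tested, 3 (Ebf2, Slc36a2 and Fgfr1) had an unadjusted p under 0.05 in the same direction in all 3 fits, a share close to the 2.17% of all genes.

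**Figure D4:**
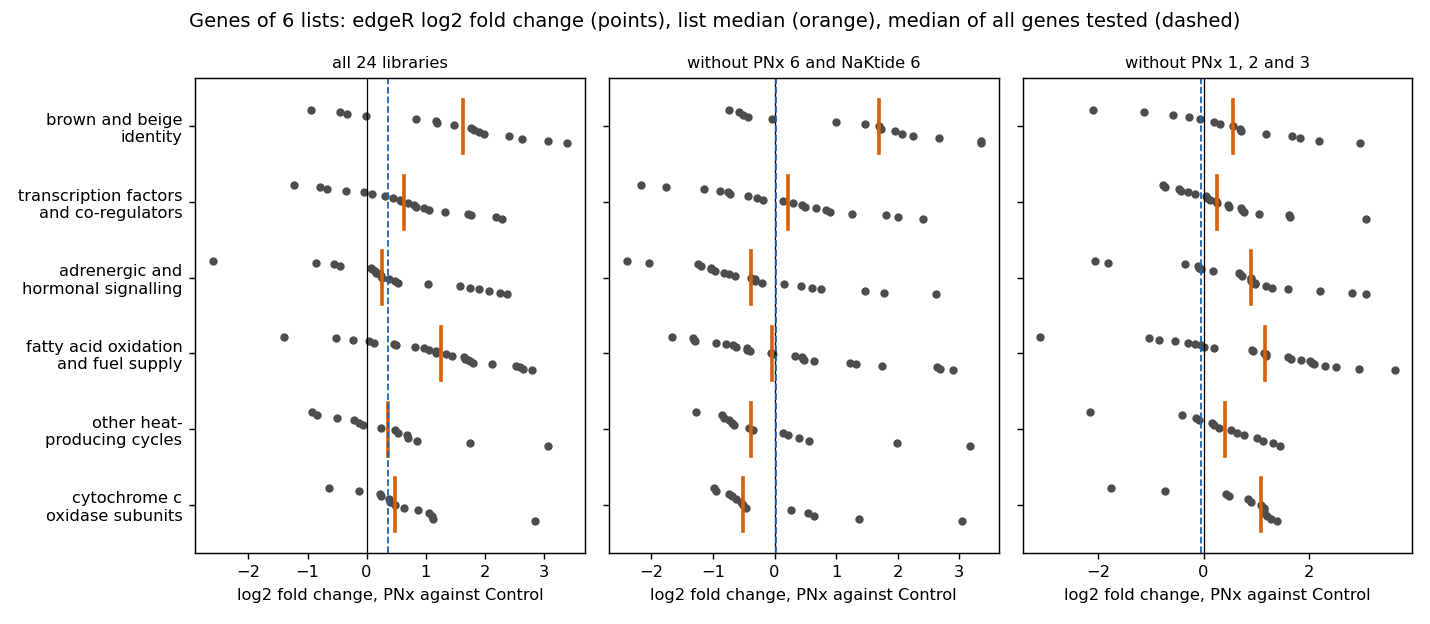
edgeR log2 fold change of PNx against Control (horizontal axes) for the genes of 6 thermogenic lists (points, 1 a gene), with the list median (orange bar) and the median of all genes tested (dashed line), in the fits on all libraries, without PNx 6 and NaKtide 6, and without PNx 1, 2 and 3. The identity list had medians of 1.63, 1.69 and 0.57, and the oxidase list 0.48, -0.51 and 1.10.

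PNx+NaKtide against PNx, which shares the PNx libraries with the contrast above, gave no list gene past an adjusted p of 0.1 in edgeR. At an unadjusted p under 0.05 the lists had 2 of 16 identity genes, 4 of 20 transcription factors, 5 of 24 fatty acid oxidation genes, 3 of 13 oxidase subunits, 1 of 21 signaling genes and 1 of 14 heat cycle genes lower in PNx+NaKtide, against 8.6% of all genes. Fgf21 and Cox6c were the genes on the higher side (2.26 and 0.59 on the log2 scale), against 4.07% of all genes. The list medians lay between -1.10 for the identity list and -0.08 for the heat cycles, and the median of all genes was -0.37. Without PNx replicate 6 and NaKtide replicate 6 the medians were 0.63 for signaling, 0.41 for the oxidase subunits, 0.21 for the heat cycles, -0.034 for fatty acid oxidation, -0.26 for the transcription factors and -1.01 for the identity list, beside -0.11 for all genes, so that 3 of the 6 turned. Without PNx replicates 1, 2 and 3 they were -0.42, -0.85, 0.12, -0.80, -0.14 and -0.41 in the same order, beside -0.010. limma voom on all libraries gave 1.09, 0.57 and 0.65 for the first 3. DESeq2 called 10 of the 108 list genes lower and 0 higher.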

How the data were processed

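RNA sequencing data of 24 mouse adipose tissue libraries in 4 groups of 6 were used, with groups and replicate numbers from the sample labels. By the labels and methods, the authors prepared stranded mRNA libraries from total RNA, sequenced them as pairs of 50 bp reads, used Trimmomatic 0.38 for trimming and HISAT2 2.1.0 for alignment to GRCm38, and counted the reads of each gene. Whether that count used strand, and which annotation release it used, is not given in the sources used here. Of the tables that the authors deposited, the raw counts served for the tests, the FPKM for levels per length and for alternatives, and the normalized table was not used. Columns without a sample numbered 0.

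Symbols and coordinates came from GENCODE M21 (54165 of 54232 identifiers matched) and promoters from RefSeq on GRCm38.p6 (32851 promoters). Genes with more than 10 counts over the 24 libraries were tested (26116 genes) with edgeR 4.0.16 in R 4.3.3, with library sizes set by TMM (trimmed mean of M values), 1 fit of 4 group means and the robust quasi-likelihood test, with a Benjamini-Hochberg adjusted p under 0.1 over all genes. An unadjusted p under 0.05 gave a second count. A standard error is the size of the log2 fold change over the root of its F statistic. The biological coefficient of variation was 71.4%, and libraries held 679250 to 2979505 counts, so genes of few counts were imprecise. Each p-value sets a difference between groups against the spread between libraries, with 1 estimate per gene shared by all 4 groups. In a simulation of PNx against Control with 22710 genes, edgeR called 16% of 200 genes changed 4-fold and 8.57% of its calls were false.

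The members, the 6 pathway lists, the 10 marker lists and the tests were chosen with earlier results of these data known. Named genes were the 8 members, per pathway list the called genes or else the 4 of lowest p in PNx against Control, the isoforms Cox7a2 and Cox8a, and for members with a mean of at least 5 counts the 3 most correlated genes (log2 CPM, prior count 2). Gm26512, B230104I21Rik and single marker genes were chosen after their values were seen. Marker lists were summed per library and not tested.

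Alternatives were DESeq2 1.42.0, edgeR with library size scaling or DESeq2 size factors, filterByExpr, no filter, limma 3.58.1 voom with sample weights, the compared groups only, the replicate block, a threshold of 0.05, limma on log2(FPKM + 1) and log2(FPKM + 0.1) (a scale that understates changes of low genes), and leaving out each library in turn. The fits without PNx 6 and NaKtide 6 and without PNx 1, 2 and 3 were added after seeing the data. Libraries of 1 group always differed by more than sampling noise (lowest chi-square per degree of freedom 1.58).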

Additional observations from a re-analysis of the deposited data

Results flagged for a closer look

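Within a group of 6 libraries, a value was set apart when its gap to the nearest other library was a larger share of the range of the group than Dixon's critical value for 6 samples allows. This held for 11 of 53 groups of values tested, and chance flags about 1 in 20 groups of continuous values. That rate does not apply to 6 of the 11, where the other 5 libraries were at 0 and any count makes the gap the whole range (1). These were Ucp1 in Control replicate 6 (0.67 CPM, 1 count), Cidea in Control replicate 5 (0.62 CPM, 1 count) and in NaKtide replicate 6 (3.88 CPM, 6 counts), Ppargc1a in PNx replicate 6 (0.38 CPM, 1 count), and Cox8b in NaKtide replicate 6 (16.2 CPM, 25 counts) and in PNx replicate 6 (1.51 CPM, 4 counts).

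Cox8a in PNx replicate 6 (52.8 CPM) was set apart by a gap of 0.836 of the range. The adipocyte list was set apart in NaKtide replicate 6 (7419 CPM, 0.892), in PNx replicate 6 (9630 CPM, 0.965) and in PNx+NaKtide replicate 1 (1648 CPM, 0.633), and the skeletal muscle list in NaKtide replicate 6 (7853 CPM, 0.98). Of these 11 values, 5 were in NaKtide replicate 6 or PNx replicate 6 for a thermogenic gene or its isoform, with the marker lists high in the same libraries. Whether the marker lists and these genes share a source was not tested.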

How the results depend on the processing

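No member passed an adjusted p of 0.1 in edgeR in the 5 contrasts, and in NaKtide against Control, PNx+NaKtide against NaKtide and the interaction this held under each alternative run. In PNx against Control 1 member (Dio2) passed with DESeq2, with DESeq2 size factors (adjusted p = 0.065) and without PNx replicate 4 (2.80, adjusted p = 0.080), and limma voom called 3 members there and 3 in PNx+NaKtide against PNx. Leaving out 1 library at a time gave 0 to 1 members in PNx against Control and 0 elsewhere, with a log2 fold change of Dio2 between 1.96 and 2.80. Over all alternatives the adjusted p of Dio2 lay between 0.016 and 0.628. Ucp1 and Elovl3 had too few counts to test, and Cidea, Ppargc1a and Cox8b rested on 16, 12 and 31 counts.

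The directions of low members changed with the settings, and the cause was not tested. In PNx against Control, Dio2 was -3.47 and Cox7a1 0.23 without PNx 1, 2 and 3, Cox8b -0.67 with voom, and Prdm16 0.12 with DESeq2 size factors, 0.092 with DESeq2, 0.037 on log2(FPKM + 1) and 0.10 on log2(FPKM + 0.1). In PNx+NaKtide against PNx, Dio2 was 4.55 and Cox7a1 -0.59 without PNx 1, 2 and 3, Cox7a1 was -0.016 with library size scaling, -0.24 on log2(FPKM + 1) and -1.05 on log2(FPKM + 0.1), Cidea was 0.64 with voom, and Cox8b was 1.66 with voom, 0.10 on log2(FPKM + 1) and 0.51 on log2(FPKM + 0.1). Without 1 library each, Cidea lay between -1.10 and 0.56, Cox7a1 between -0.27 and 0.63 and Cox8b between -0.75 and 2.06. Cidea, Cox8b and Ppargc1a could not be tested without PNx 6 and NaKtide 6.

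The number of genes called in PNx against Control was 20 (all lower) in edgeR and ranged from 0 to 8645 without 1 library. It was 7764 with DESeq2, 8696 with DESeq2 size factors, 4102 with library size scaling, 2159 with filterByExpr, 16654 with voom, 1 without a filter, 0 with the compared groups only or at an adjusted p under 0.05, 40 on log2(FPKM + 1) and 7 on log2(FPKM + 0.1), 5575 without PNx 6 and NaKtide 6, and 0 without PNx 1, 2 and 3. In PNx+NaKtide against PNx it was 0 in edgeR, 1514 with DESeq2, 11479 with voom and 4 on either FPKM scale, and for the interaction 0, 94 with DESeq2 and 6662 with voom. The remaining contrasts gave at most 3 genes under any alternative. The median over all genes in PNx against Control was 0.36 (log2) with TMM, 0.70 with library sizes and 0.76 with DESeq2 size factors.

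The replicate numbers were not used as pairs in the main fit, and whether they pair the samples was not settled by the values. Of 36 pairs of same-numbered libraries, 19 had deviations correlated above 0.1 (-0.64 to 0.80), and 12 of the 36 were the best match of a library. With the replicate number as a block, Dio2 had 1.17 (adjusted p = 0.628) in PNx against Control, Cidea 0.41 and Cox8b 0.71 in PNx+NaKtide against PNx, 0 members were called in the 5 contrasts, and 1 gene was called in PNx against Control and 2 for the interaction.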

Other observations

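The remaining marker lists, which enter no comparison above, had these summed levels over the 24 libraries. The epididymis list (15 genes) ranged from 786 to 2399 CPM in Control and from 23.2 to 2193 CPM in PNx, with 22.6 CPM in NaKtide replicate 6. The kidney list (15 genes, 6 with an exon overlap on the opposite strand) ranged from 3259 to 4942 CPM in Control and from 863 to 4816 CPM in PNx. PNx replicate 6 had the highest sum of 3 lists, at 896 CPM for endothelium, 505 CPM for fibroblast progenitors and 1629 CPM for erythrocytes. The macrophage list reached 597 CPM in PNx+NaKtide replicate 5 and the mesothelium list 103 CPM in PNx+NaKtide replicate 6.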
